A study of Caenorhabditis elegans with 3 samples.

Results

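The 10 genes described here act in the removal of apoptotic cells in Caenorhabditis elegans, and they were taken by symbol from a table of read counts for 46739 genes, of which 20362 are protein coding. They were measured in 3 RNA libraries of dissected germlines of N2, the wild-type laboratory strain, with no treatment, mutation or transgene named in the labels. The 3 libraries form 1 group, so no contrast between conditions exists, and the series asks which transcription factors the germline expresses rather than how corpses are cleared. The labels number the libraries 1 to 3 without naming animals, pools or cultures, and the spread between them may be technical.

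Many germ cells of the hermaphrodite gonad die by apoptosis late in the pachytene stage of meiosis, and the somatic sheath cells that wrap the gonad engulf them. A dying cell exposes phosphatidylserine on its surface, and the engulfing cell reads such signals through partly parallel arms. In the receptor arm, the secreted protein TTR-52 bridges phosphatidylserine to the transmembrane receptor CED-1, helped by the ABC transporter CED-7, and the adaptor CED-6 passes the signal on. In the Rac activation arm, the surface protein PSR-1 and the adaptor CED-2 (CrkII in mammals) act with CED-5 (DOCK180) and CED-12 (ELMO), which together switch on the Rac GTPase CED-10, whose actin remodelling lets the cell extend around the corpse. CED-8, a relative of the Xk family of scramblases, acts in the dying cell in the exposure of phosphatidylserine.

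The libraries held 14523486, 15566299 and 16656171 counts in replicates 1, 2 and 3, of which 90.6% to 94.9% fell on protein-coding genes. Levels are given as CPM, counts scaled to the library's total, and for comparisons between genes as RPKM, which is CPM per kilobase of merged exon length in the Ensembl release 115 annotation of WBcel235. That build is also the one named for the deposited counts. The tissue label was checked against marker lists, which were chosen with earlier results of these data known. All 9 germ cell markers and all 9 oocyte markers had at least 10 CPM in every library, where 26.6% of protein-coding genes did. In CPM these lists were led by glh-1 and perm-4. Markers of somatic cells were present too, and their levels are given with the results below. In such bulk RNA, fewer cells of a type and less RNA per cell cannot be told apart, and a count does not say whether a transcript came from a germ cell or from a sheath cell.

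Transcripts of 9 of the 10 genes were detected, meaning at least 1 CPM in each library, where 40.2% of protein-coding genes were. With minima of 5 and of 10 CPM the number was 8 of the 10 both times, where 30.4% and 26.6% of protein-coding genes passed. The 2 that did not pass these were ced-10, which was low, and ttr-52, which was at or near 0. The median over the 10 genes of the mean log2(CPM + 1) was 5.65 (SD of the library medians 0.09, n = 3), beside 0.66 for all protein-coding genes and 5.01 for those detected. On the RPKM scale the median of the 10 was 18.6, beside 0.548 for the 20116 protein-coding genes with a length and 22.2 for the detected ones. The group thus lay above the median protein-coding gene. Beside the detected genes it lay higher in log2(CPM + 1) and lower in RPKM, with the undetected ttr-52 included in both medians. Without ttr-52 the median log2(CPM + 1) was 6.19. Together the 10 genes took 528 CPM in replicate 1, 551 in replicate 2 and 543 in replicate 3.

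**Figure D1:**
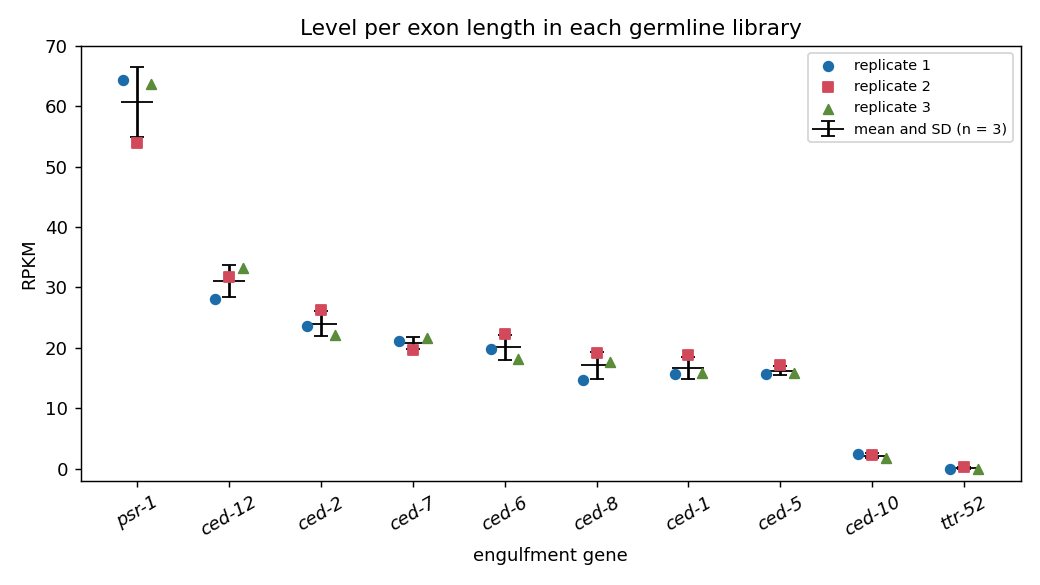
RPKM of the 10 engulfment genes (vertical axis) in each of the 3 wild-type germline libraries, with the mean and SD (n = 3), ordered from the highest gene to the lowest. psr-1 stands apart at a mean of 60.7 RPKM, 7 genes lie between 16.2 and 31.0 RPKM, and ced-10 and ttr-52 lie at 2.13 and 0.0727 RPKM.

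In the receptor arm, the receptor gene itself, ced-1 (WBGene00000415), lies on the minus strand of chromosome I at 11851554 to 11868105 and has 4 annotated transcripts. It had 76.1, 91.6 and 76.9 CPM in replicates 1, 2 and 3, which is 15.6, 18.8 and 15.8 RPKM. Replicate 2 was the high library, and the other two were nearly level. The merged exons of ced-1 span 4875 bases, while its longest transcript has 3729, so its level per length depends on which length is used more than that of the other detected genes of this arm. It was 16.7 ± 1.79 RPKM by merged exons (SD, n = 3) and 21.9 ± 2.34 by the longest transcript.

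The ABC transporter gene ced-7 (WBGene00000421, chromosome III, minus strand, 9570390 to 9580089) drew the most reads of the 10 genes, with 120.5, 112 and 124 CPM in the 3 libraries. Per length it was not unusual among them, at 20.8 ± 1.01 RPKM, because its merged exons add up to 5702 bases. CED-7 is known to be needed in both the dying and the engulfing cell. The adaptor gene ced-6 (WBGene00000420, chromosome III, plus strand, 5595771 to 5598061), whose protein is related to mammalian GULP, had 33.5, 37.6 and 30.6 CPM. This came to 20.1 ± 2.09 RPKM, level with ced-7, since ced-7 was the higher of the pair in 2 of the 3 libraries. Relative to ced-1, ced-6 was higher in each library by log2 ratios of 0.34, 0.25 and 0.20 (mean 0.26, SD 0.07), but with lengths of the longest transcript this order turned round in every library.

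The bridging gene ttr-52 (WBGene00008719, chromosome III, plus strand, 13404718 to 13405783) had 0, 2 and 0 counts. The limit that a count of 0 allows, taken as 3 counts of the library total, was 0.207 CPM in replicate 1 and 0.18 CPM in replicate 3, and covers counting error only. Expression of ttr-52 was therefore not detectable at this depth. The other secreted lipid-binding protein of the bridging step, nrf-5, was detected at 5.65, 5.27 and 6.12 CPM.

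In the Rac activation arm, psr-1 (WBGene00004205, chromosome IV, plus strand, 4653262 to 4655850) was the highest engulfment gene per length. Its protein carries a Jumonji domain and is the worm relative of mammalian JMJD6, which is known as a nuclear enzyme, while in worms PSR-1 binds phosphatidylserine. It had 91.2, 76.5 and 90.3 CPM, or 64.3, 54 and 63.7 RPKM, and was lowest in replicate 2. Its mean of 60.7 ± 5.81 RPKM (SD, n = 3) lay at percentile 91.2 of all protein-coding genes and at percentile 78.4 of the detected ones. It exceeded the next gene, ced-12, in each library, by a mean log2 ratio of 0.97 (SD 0.22), and it exceeded ced-1 by 1.86 (SD 0.29).

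The 3 genes whose products form the Rac-activating module differed among themselves per length. The ELMO gene ced-12 (WBGene00000426, chromosome I, minus strand, 10222881 to 10227009) had 65.3, 73.9 and 77.1 CPM and averaged 31.0 ± 2.64 RPKM. The exchange factor gene ced-5 (WBGene00000419, chromosome IV, plus strand, 10484110 to 10492913) had more reads, with 88.4, 96.2 and 89.5 CPM, but 19 exons totalling 5644 bases put it at 16.2 ± 0.75 RPKM. ced-12 was higher than ced-5 per length in each library, with log2 ratios of 0.84, 0.90 and 1.06. The CrkII-like adaptor gene ced-2 (WBGene00000416, chromosome IV, plus strand, 1597318 to 1601621) had 25.8, 28.7 and 24.3 CPM. At 24.0 ± 2.04 RPKM it lay between its partners, above ced-5 by log2 ratios of 0.59, 0.62 and 0.48 and below ced-12 in each library.

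The Rac gene ced-10 (WBGene00000424, chromosome IV, minus strand, 3506328 to 3509527), on which this arm acts, was the lowest of the 9 detected genes. It had 58, 59 and 47 counts, or 3.99, 3.79 and 2.82 CPM, and 2.13 ± 0.377 RPKM. ced-5 was higher in every library, by a mean log2 ratio of 2.94 (SD 0.26). This value is uncertain, because ced-10 has a close copy, rac-2, and reads that match both genes may have been left out by the counting, whose setting for them is not stated here. rac-2 (chromosome IV, plus strand, 16308225 to 16309829) had a count of 0 in each of the 3 libraries. Of the merged exons of ced-10, 65.5% lie outside its coding sequence, against 0.51% of those of rac-2, whose annotated exons total 588 bases. With the same counts divided by coding length, ced-10 had 6.17 RPKM and ced-5 17.1 RPKM. This cannot show whether reads were lost, because the counts are unchanged. How many reads of either gene were left uncounted was not tested.

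The third Rac-like gene, mig-2, known to overlap with ced-10 in cell migration, had 9.16, 10.9 and 10.3 CPM. At 9.23 ± 0.793 RPKM it was above ced-10 in each library, by log2 differences of -1.80, -2.12 and -2.47 for ced-10 over mig-2. Of the counts on ced-10, rac-2 and mig-2 together, ced-10 held 30.4% in replicate 1 (95% exact binomial interval 23.9 to 37.4), 25.9% in replicate 2 (20.3 to 32.1) and 21.5% in replicate 3 (16.2 to 27.5). The intervals cover counting error only, and a difference between the libraries in this share was not tested. Per merged exon length the share of ced-10 was 18.8 ± 3.53% (SD, n = 3).

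The gene of the dying cell, ced-8 (WBGene00000422, minus strand, 8414006 to 8416919), is the only X-linked gene of the 10. It had 23.1, 30.1 and 28 CPM and 17.1 ± 2.27 RPKM, with replicate 1 the low library. The X chromosome is known to be largely silent through much of germ cell development. Among the protein-coding genes of its own chromosome ced-8 lay at percentile 94.2 by RPKM, while among all protein-coding genes it lay at percentile 77.1. Among the detected protein-coding genes it lay at percentile 43.8. For the other 9 genes the percentile on their own chromosome was below that among all protein-coding genes. For ced-1 on chromosome I it was 62.4 against 77.0, and for ced-7 on chromosome III it was 65.7 against 78.9. Among detected protein-coding genes ced-1 and ced-7 lay at percentiles 43.4 and 48.2.

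**Figure D2:**
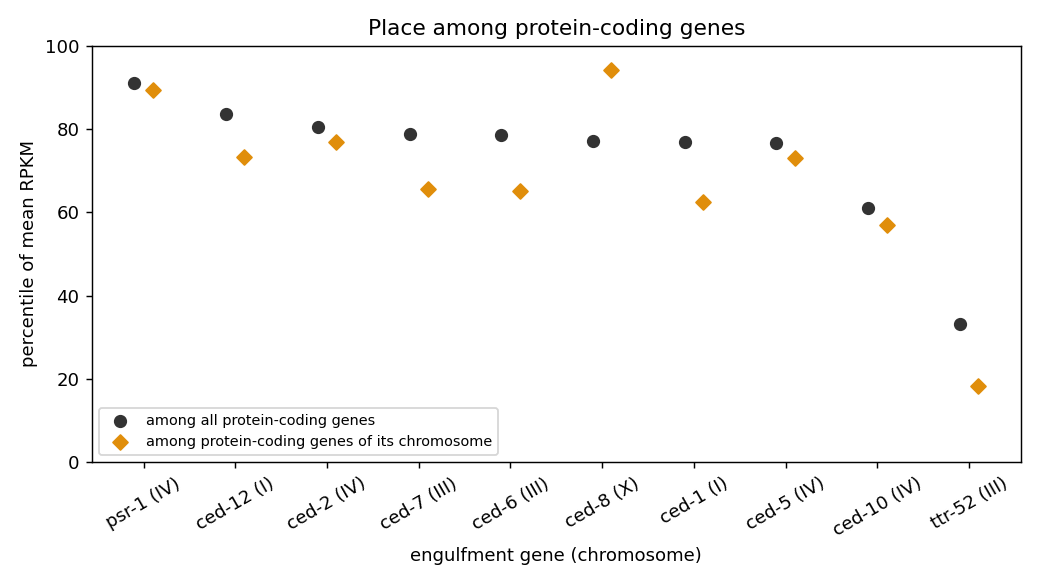
Percentile of the mean RPKM of each of the 10 engulfment genes (vertical axis) among protein-coding genes of its own chromosome (diamonds) and among all protein-coding genes (circles), with the chromosome in brackets. ced-8 on X is the gene whose own-chromosome percentile (94.2) lies above that among all genes (77.1), and ttr-52 is the lowest by both.

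Ordered by mean RPKM, the genes ran psr-1, ced-12, ced-2, ced-7, ced-6, ced-8, ced-1, ced-5, ced-10 and ttr-52. Of the 9 pairs of neighbours in this order, 6 had the same gene on top in each of the 3 libraries. The exceptions were ced-7 with ced-6, ced-8 with ced-1, and ced-1 with ced-5, which did not differ beyond their spread. Within that stretch of the order, ced-6 was above ced-8 in each library. Of all 45 pairs, 41 kept 1 order in every library. With 3 libraries an exact two-sided sign-flip permutation test cannot give a p below 0.25, so these orders are descriptions. By coding length ced-10 stood at 6.17 ± 1.09 RPKM, the largest shift of a detected gene relative to its level, and of the 10 genes ced-1, ced-7 and ced-8 changed places.

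Summed per length, the receptor arm (ced-1, ced-6, ced-7 and ttr-52) had 56.6, 61.0 and 55.6 RPKM in replicates 1, 2 and 3, and the Rac activation arm (psr-1, ced-2, ced-5 and ced-12) had 132, 129 and 135 RPKM. The receptor arm was lower in each library, with log2 ratios of -1.22, -1.08 and -1.28 (mean -1.19, SD 0.10, n = 3). Most of this gap came with psr-1. Without it, a choice made after its values were seen, the Rac activation arm summed to 71.2 ± 3.84 RPKM and the mean log2 ratio was -0.30 (SD 0.05).

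The engulfment genes differed between the libraries by modest factors. On column totals the ratio of the highest to the lowest library lay between 1.09 for ced-5 and 1.42 for ced-10 among the 9 detected genes, with a median of 1.19, beside a median of 1.30 for all 8194 detected protein-coding genes. Scaled with edgeR's TMM factors, these medians were 1.31 for the engulfment genes and 1.29 for all detected genes, with DESeq2's size factors 1.28 and 1.27, and on protein-coding counts 1.24 and 1.29. The smaller spread of the engulfment genes was thus seen on column totals and on protein-coding counts, and not with the TMM factors or the size factors. On column totals the coefficient of variation had a median of 9.58% for the engulfment genes and 13.6% for the detected genes. For ced-10 the coefficient of variation was 17.7%, and sampling of its counts alone would give about 13.5%. For ced-7, with far more counts, the figures were 4.86% and 2.32%.

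Of the 9 detected genes, 5 were highest in replicate 2, namely ced-1, ced-2, ced-5, ced-6 and ced-8, where 32.2% of detected protein-coding genes were. By contrast, psr-1 and ced-7 were lowest in replicate 2, as were 35.5% of detected protein-coding genes. Scaled with edgeR's TMM factors, 6 of the 9 were highest in replicate 2, where 47.8% of detected protein-coding genes then were, and with DESeq2's size factors and with protein-coding counts it was also 6 of the 9, where 40.5% and 39.3% of detected protein-coding genes were. The 3 detected genes with the largest ratios were ced-10, ced-8 and ced-6. Their nearest genes in profile over the 3 libraries, among detected genes of a mean CPM within 2-fold, were W09D12.1 and F22D3.6 for ced-10, pvf-1 and ZK632.11 for ced-8, and C02D5.4 and Y119D3B.12 for ced-6. pvf-1, which encodes a growth factor of the PDGF and VEGF family, had 23.2, 30.3 and 28.2 CPM and was chosen among 2505 candidates, so with 3 libraries so close a match is a description of these libraries.

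**Figure D3:**
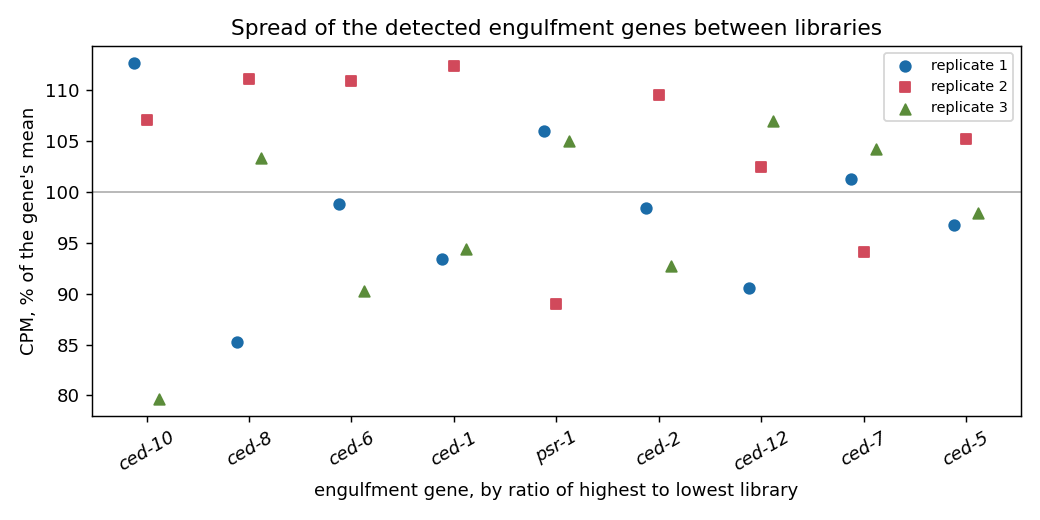
CPM of the 9 detected engulfment genes in each library as a percentage of the gene's own mean (vertical axis), ordered by the ratio of the highest to the lowest library. Replicate 2 is the highest library for 5 genes and the lowest for psr-1 and ced-7, and the ratios run from 1.42 for ced-10 down to 1.09 for ced-5.

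The sheath cells that engulf germ cells were represented by 5 markers, all detected, beside 40.2% of protein-coding genes. At least 10 CPM in every library was reached by 2 of the 5, beside 26.6% of protein-coding genes. The innexin gene inx-8 was the highest of the 5, with 231, 295 and 172 CPM. The LIM homeodomain gene lim-7 had 7.23, 6.49 and 8.71 CPM. The POU homeodomain gene ceh-18 had 4.27, 2.63 and 3.66 CPM. Per length, the 8 engulfment genes above ced-10 lay between 16.2 and 60.7 RPKM, whereas lim-7 lay at 3.91, ceh-18 at 1.38 and the adenylate cyclase gene acy-4 at 0.898 RPKM, while inx-9 and inx-8 lay at 38.2 and 171 RPKM. The sheath markers together had 294, 371 and 223 CPM in replicates 1, 2 and 3, a ratio of 1.66 that inx-8 dominated. Replicate 2 was the high library of inx-8, inx-9 and acy-4 and the low library of lim-7 and ceh-18. The part of the sheath cells in the levels of the engulfment genes was not tested.

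Summed over the list on column totals, the engulfment genes had a ratio of 1.04 between the highest and the lowest library. In this sum psr-1 and ced-7, lowest in replicate 2, stand beside genes highest there. Other scalings of this sum were not tested. The lists of steps around engulfment, described below, had ratios between 1.06 for other engulfment regulators and 1.19 for core cell death. The sums of the marker lists had ratios between 1.26 for oocyte and 13.4 for hypodermis and cuticle markers. The 9 sperm markers summed to 4046, 445 and 1200.3 CPM in replicates 1, 2 and 3, and the 7 hypodermis and cuticle markers to 528, 39.4 and 113 CPM, led by col-140. The 10 intestine markers summed to 379.7, 1629 and 644 CPM, a total made up largely of the yolk protein genes vit-2, vit-5 and vit-6, with the transcription factor gene elt-2 at or under 0.18 CPM and 7 of the 10 detected, beside 40.2% of protein-coding genes. Body wall muscle markers summed to 771, 494 and 487 CPM, led in CPM by lev-11, which like several of that list is also expressed in the contractile sheath. Spermatheca markers summed to 479, 417 and 565 CPM, nearly all of it the filamin gene fln-1. The 4 pharyngeal muscle markers, the 6 neuron markers, the 2 distal tip cell markers and the 2 coelomocyte markers each summed to at most 11.2 CPM in every library, led by tni-4, unc-119, hlh-12 and cup-4. None of the somatic or sperm markers was at 0 in all 3 libraries. The part of these cells in the values of the engulfment genes was not tested.

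**Figure D4:**
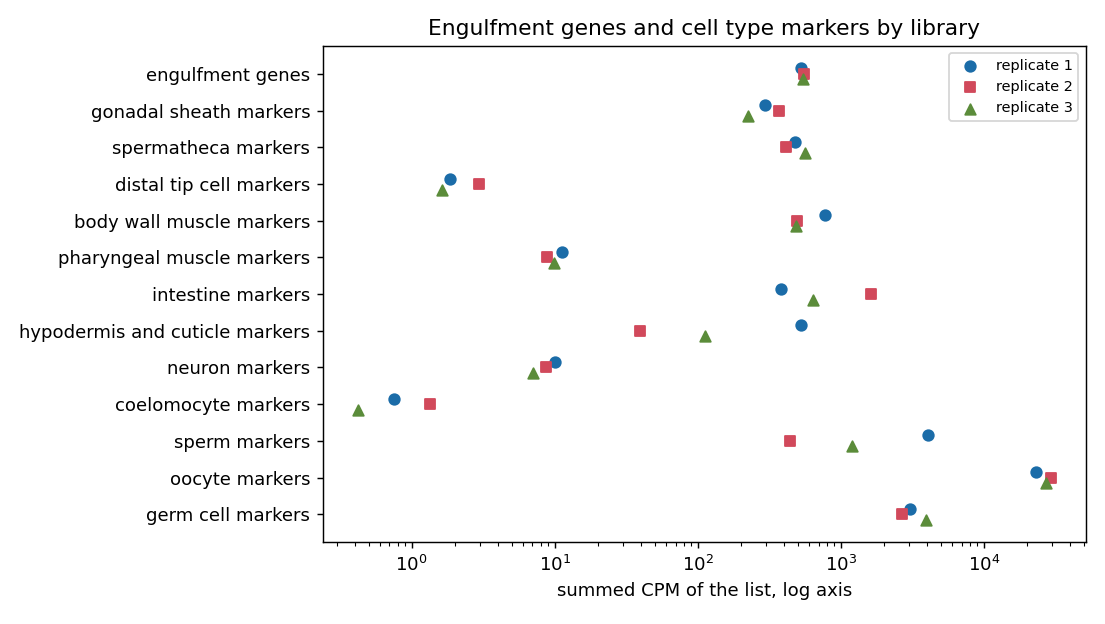
Summed CPM (horizontal log axis) of the 10 engulfment genes and of 12 lists of cell type markers in each of the 3 libraries. The engulfment genes lie between 528 and 551 CPM, while the sperm markers run from 445 to 4046 CPM and the hypodermis and cuticle markers from 39.4 to 528 CPM.

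The steps before and after engulfment were represented by 5 further lists of genes. Upstream, 5 of 9 core cell death genes were detected, beside 40.2% of protein-coding genes. The highest per length were cep-1, the p53 relative, at 23.4 RPKM, the Apaf-1 relative ced-4 at 21.3 RPKM and the caspase gene ced-3 at 13.8 RPKM. The BH3-only gene egl-1 had 2.00, 2.57 and 2.40 CPM, and the cell death inhibitor ced-9 had 8.81, 5.33 and 5.28 CPM. The other BH3-only gene, ced-13, had at most 0.12 CPM, and the caspase-related genes csp-1, csp-2 and csp-3 had under 1 CPM in at least 1 library, with csp-3 lowest at 0.0551 RPKM.

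Of 8 further genes of phosphatidylserine exposure and bridging, 5 were detected, beside 40.2% of protein-coding genes, and 3 reached 10 CPM in every library, beside 26.6%. The aminophospholipid flippase gene tat-1, which keeps phosphatidylserine on the inner face of the membrane, had 84.5, 92.6 and 82.4 CPM, or 17.5 RPKM. Its chaperone gene chat-1 was the highest per length at 49.8 RPKM, and the AIF relative wah-1 followed at 21.6 RPKM. The scramblase gene scrm-1 had 6.20, 4.82 and 5.16 CPM, a level per length of 3.47 RPKM, below ced-8 at 17.1 RPKM. The other bridging gene ttr-11 was, like ttr-52, not detected, with 1.51, 0.193 and 0.30 CPM. The anoctamin genes anoh-1 and anoh-2 also missed detection, and anoh-1 was the lowest of the list with 1 count in all.

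Among other regulators of engulfment, 18 of 20 were detected, beside 40.2% of protein-coding genes, and 12 reached 10 CPM in every library, beside 26.6%. The highest per length were abi-1 at 111 RPKM and gex-3 at 58.5 RPKM, both of the WAVE complex that drives branched actin, and the GTPase-activating protein gene srgp-1 at 54.4 RPKM, whose product acts against CED-10. The 2 that were not detected were rac-2 and the Cdc42-like gene crp-1, at 0.413, 2.31 and 1.20 CPM. The integrin genes ina-1 and pat-3, whose products form a receptor that can act upstream of the Rac activation arm, had 34.7 and 84.5 CPM on average, whereas the other alpha subunit gene, pat-2, had 4.20 CPM.

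Downstream, all 23 phagosome maturation genes reached at least 10 CPM in every library, where 26.6% of protein-coding genes did. The GTPase genes rab-7, arl-8 and unc-108, the worm RAB-2, were the highest at 84.3, 66.5 and 66.4 RPKM, and the phosphoinositide kinase gene piki-1 was the lowest at 3.49 RPKM. The list median was 20.4 RPKM, beside 18.6 RPKM for the 10 engulfment genes. Of 11 genes of apoptotic DNA degradation, 10 were detected, beside 40.2% of protein-coding genes, led by crn-1, crn-3 and cyn-13 at 61.9, 60.5 and 58.1 RPKM. The exception was the DNase II gene crn-6, with at most 0.257 CPM. The DNase II gene nuc-1, which degrades DNA of engulfed corpses, had 7.51, 33.6 and 10.1 CPM, a ratio of 4.48 between libraries. Its high library, replicate 2, was also that of vit-2, vit-5 and vit-6, and their part in this result was not tested.

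**Figure D5:**
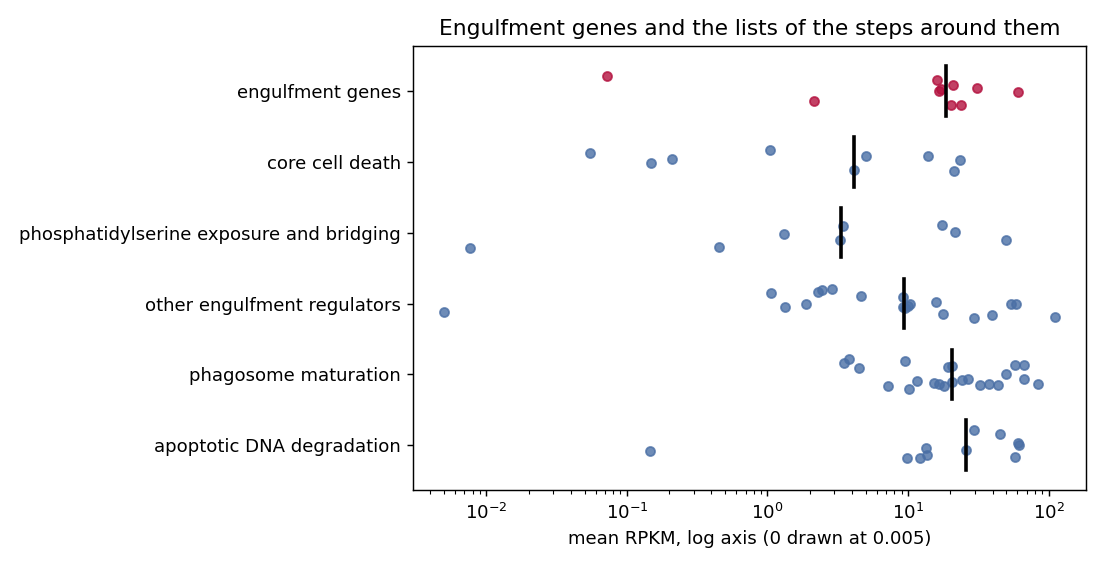
Mean RPKM over the 3 libraries (horizontal log axis, a gene at 0 drawn at 0.005) of each engulfment gene and of the genes of 5 lists of steps around engulfment, with a vertical bar at each list's median. Medians are 18.6 RPKM for the engulfment genes, 4.15 for core cell death, 3.37 for phosphatidylserine exposure and bridging, 9.36 for other engulfment regulators, 20.4 for phagosome maturation and 25.8 for apoptotic DNA degradation.

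Several of the engulfment genes touch a neighbour in the annotation, and whether the counting used strand is not stated here. The overlaps span 24 to 190 bases. The largest are those of ced-8 with F08F1.4 on the opposite strand (190 bases) and of ced-10 with the non-coding gene C09G12.18 (150 bases), which averaged 6.92 and 0 CPM. The neighbour with the highest level is wdr-37, at 72.7 CPM on average, which shares 83 bases with ced-6 on the opposite strand. ced-6 itself averaged 33.9 CPM. ced-12 shares 24 bases with csnk-1 on its own strand, which averaged 32.4 CPM. The part of these overlaps in the counts was not tested. No annotated gene overlaps ced-1, ced-2 or ttr-52.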

How the data were processed

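Per the labels' protocols, RNA came from a small-sample column kit and libraries from the SMART-Seq v4 low-input kit. The deposited values are raw counts per gene, per the file headers and the values, and STAR, featureCounts and WBcel235 are named in the submitters' processing notes. Their versions, the use of strand and the treatment of multi-mapping reads are not given here.

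CPM were computed on column totals of 14523486 to 16656171 counts, so 1 CPM stood for 14.5 to 16.7 reads, and RPKM with exon lengths of the Ensembl 115 annotation. Detection was at least 1 CPM in each of the 3 libraries, and log2 values used a pseudocount of 1. Intervals and limits at a count of 0 cover counting error only, as PCR reads without molecular identifiers are not independent molecules. Scaling alternatives used edgeR 4.0.16 and DESeq2 1.42.0, and the remaining steps Python 3.11.15. edgeR's common biological coefficient of variation was 0.35 over 8194 detected genes. With 1 group, no test between conditions was made.

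Members and lists were chosen with earlier results of these data known. Of the 21 symbols of other engulfment regulators, 20 were matched and the other was not analysed here. Named genes were all members, the Rac genes, the 3 highest and the lowest of each pathway list with every member under 1 CPM in a library, the highest marker of each list, and for 3 members the nearest 2 genes in profile. egl-1, ced-9, nrf-5, scrm-1, ina-1, pat-2, pat-3, nuc-1, elt-2, vit-2, vit-5, vit-6, lim-7, ceh-18, acy-4, inx-9 and the overlapping neighbours were named outside that rule, with their values seen.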

Additional observations from a re-analysis of the deposited data

How the results depend on the processing

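The number of engulfment genes detected was 9 at 0.5 CPM, with a raw count of at least 10 and with 2 of 3 libraries. The shares of all protein-coding genes were then 45.0%, 43.6% and 45.5%. Without any 1 replicate the number was also 9, beside 41.1% to 43.8%. These settings are looser than the main one, so the number could not fall below 9. At 5 and at 10 CPM it was 8, beside 30.4% and 26.6%. The median log2(CPM + 1) of 5.65 became 5.76 on protein-coding counts, which shift a library by up to 0.14 log2 units, and 6.19 without ttr-52, which fails the 1 CPM minimum, and 5.61 to 5.69 without any 1 replicate. The median ratio between libraries became 1.31 with TMM, which shifts a library by at most 0.08 log2 units, in place of 1.19. With DESeq2's size factors it became 1.28, beside 1.27 for all detected genes. The log2 ratio of the receptor arm to the Rac activation arm was -1.06 with the longest transcript, -0.30 without psr-1, an alternative added after seeing the data, and -1.25 to -1.15 without any 1 replicate. The share of ced-10 among the Rac genes was 26.3% by coding length and 17% to 20.5% without any 1 replicate, against 18.8%. At 10 CPM, 3 of 9 core cell death genes and 3 of 8 genes of phosphatidylserine exposure and bridging were counted in place of 5 each. The share of all protein-coding genes was 26.6% at this minimum. Of 80 recomputed values, 72 were called the same, by the SD listed for a result or, for counts, within 1.5 times the count. The SD of 0.1 listed for the median ratio is not between replicates, as each gene has 1 ratio over all 3 libraries. Ratios of single genes, which have no SD, were counted among the 72. The number of gene pairs in 1 order was 41 to 43 without any 1 replicate, and with fewer libraries it could not fall below 41. For ced-10 and ttr-52, depth limits the precision. No paired analysis was possible because the libraries form 1 group.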
